A study of Homo sapiens with 10 samples.

Results

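The 44 genes described here act in mitosis, and their products build the spindle, hold anaphase back until every chromosome is attached, and shape and separate the chromosomes. They were picked out by gene name in the deposited expression table, from a list made with earlier results of these data known, and all 44 of 44 names were found among its 58302 genes. Each of the 44 reached the level asked of a gene for testing, at least 1 CPM (counts of reads assigned to the gene, scaled to a common total in each library) in at least 2 libraries. They fall into 6 roles, which are 7 mitotic cyclins, CDK1 and their regulators, 9 genes of the spindle checkpoint and anaphase control, 4 of the chromosomal passenger complex, 6 of the centromere and kinetochore, 12 spindle motors, spindle proteins and cytokinesis genes, and 6 condensins and chromosome structure genes. They lie on 17 chromosomes.

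The cells were KYSE-410, a long-established line grown from a human squamous cell carcinoma of the oesophagus. The control was 1 colony of these cells with an empty vector, labelled wild type. The 4 other groups were the clones D4, G4, G10 and H3, in which the Cas9 nickase had been aimed at INPPL1 to knock out SHIP2, a phosphatase of the phosphoinositide lipids made by PI3-kinase. Cells had been sorted by GFP and clones were picked by Western blot for the protein, per the labels, so each group stands for a single colony or clone. No agent was added to any group as far as the labels say. Every group had 2 libraries of total RNA, and nothing says that these came from separate cultures, so p-values measure the spread between these libraries, which may be technical. The comparison asks how mitotic transcripts stood in cells edited at INPPL1 beside cells that were not.

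Entry into mitosis depends on CDK1 bound to a cyclin, and exit from it on the anaphase-promoting complex, a ubiquitin ligase that marks cyclins and securin for destruction. The spindle checkpoint blocks that ligase while any kinetochore, the protein plate on a centromere, lacks attached microtubules. Transcripts of these genes rise together in late cell cycle phases under the control of MuvB complexes and FOXM1, so their level in a dividing culture is widely read as a sign of how many cells are in G2 and mitosis. In a bulk library, more cells in these phases and more RNA per cell cannot be told apart.

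Mitotic transcripts were mostly higher in the clones than in the control colony, by small amounts. For the mean of the 4 clones, 37 of the 44 genes rose, against 18.2% of the 17664 genes tested, and 1 fell, against 22.0% (limma on log2(CPM + 1), Benjamini-Hochberg adjusted p under 0.05 over all genes tested). The median log2 difference over the 44 genes was 0.31 and over all genes tested -0.02, and the single genes ran from -0.15 for SMC4 to 0.70 for BUB1. A fold change here is 2 raised to a difference on the log2(CPM + 1) scale, and it reached 1.5 in 3 genes, CDCA3, BUB1 and UBE2C. The 6 genes that passed in neither direction were CKS2, BIRC5, INCENP, NUF2, KIF2C and MKI67. In 23 of the 44 genes all 8 clone libraries lay above both control libraries, which held for 7.66% of all genes tested, and in 0 genes did all 8 lie below both, which held for 11.5%. These tests set 4 particular clones against 1 colony. When clones rather than libraries counted as replicates, limma called 0 of the 44 genes and 0 of all 17664 genes tested. At an unadjusted p under 0.05, clone means then gave 5 of the 44 genes (lowest adjusted p 0.98) and 693 of all genes tested. A random effect of clone gave 10 of the 44 (lowest adjusted p 0.447) and 1152 of all genes tested. These 5 and 10 genes were all higher.

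Clone by clone, the counts ran from 19 higher genes in G4 to 38 in H3. H3 had 38 higher and 1 lower of the 44 genes against the control, where 23.9% and 22.1% of all genes tested were called. In G10, 34 rose and 0 fell, against 17.8% and 19.1% (limma, and 0 were lower at an unadjusted p under 0.05). D4 had 23 higher and 2 lower, against 17.5% and 23.8%. G4 had 19 higher and 1 lower, against 10.9% and 16.4%. The median log2 difference of the 44 genes was 0.45 in H3, 0.40 in G10, 0.20 in D4 and 0.19 in G4, where the medians of all genes tested were 0.01, 0.00, -0.06 and -0.04. Summed over the 44 genes, expression was 5044 and 4931 CPM in the control libraries, 5774 and 5486 CPM for D4, 5695 and 5598 CPM for G4, 6379 and 5992 CPM for G10, and 6478 and 6873 CPM for H3. All 8 clone libraries exceeded both control libraries in this sum, and both H3 libraries exceeded the other 6. The 4 comparisons share the 2 control libraries. Without D4 replicate 1, the number of genes higher in D4 was 14.

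**Figure D1:**
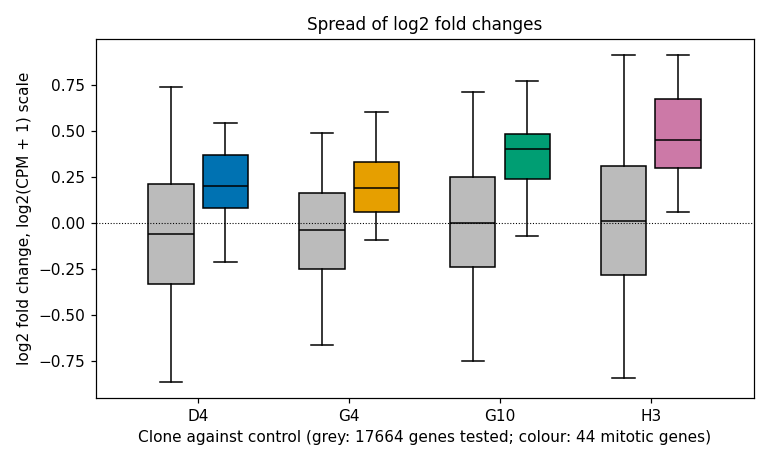
Log2 difference of each clone from the control (vertical axis, log2(CPM + 1) scale) for all 17664 genes tested (grey) and for the 44 mitotic genes (colour), with boxes from the 25th to the 75th percentile, a line at the median and whiskers at the 5th and 95th percentiles. The medians of the mitotic genes, 0.20, 0.19, 0.40 and 0.45 in D4, G4, G10 and H3, lie above those of all genes, which run from -0.06 to 0.01.

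**Figure D2:**
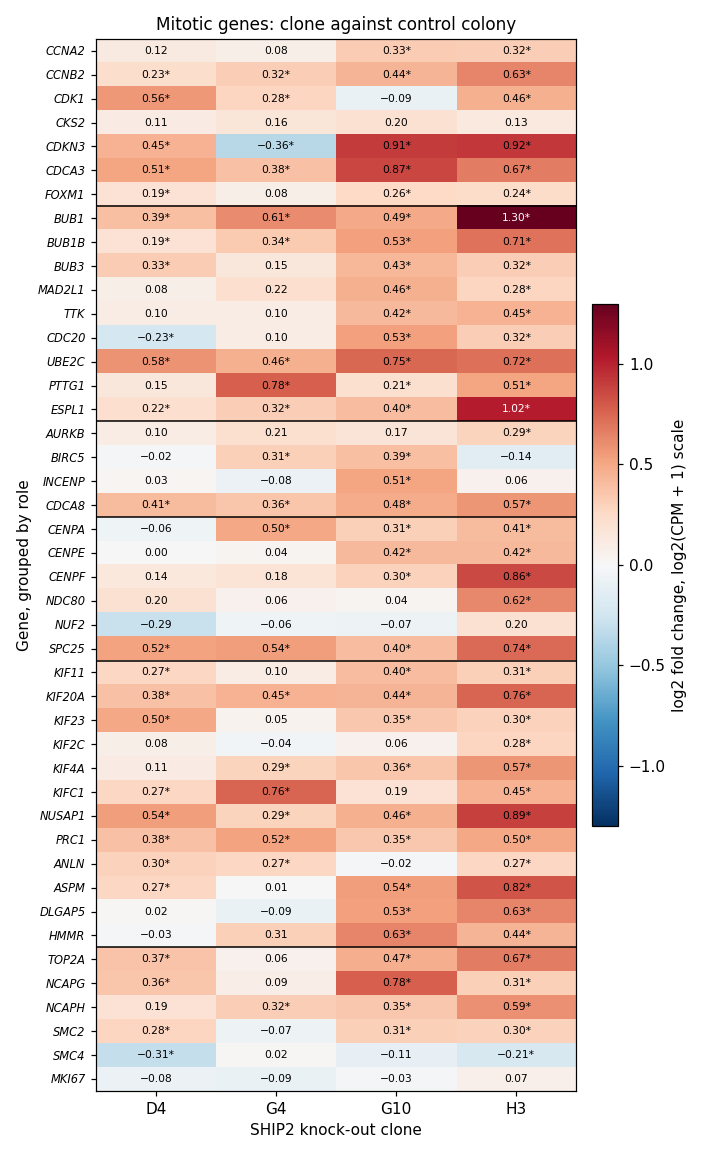
Log2 difference from the control (colour and printed value, log2(CPM + 1) scale) of the 44 mitotic genes in each clone, grouped by role, with a star where the adjusted p is under 0.05. Most cells are above 0, the largest value is 1.30 for BUB1 in H3, and the lowest is -0.36 for CDKN3 in G4.

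Facts of the libraries bear on all of these values. The deposited columns correspond to an estimated 9653835 to 14253437 gene-assigned reads per library, and a count of 0 would allow 0.21 to 0.311 CPM (3 counts, counting error only). The lowest value of any of the 44 genes in a library was 10.8 CPM and the highest 573 CPM, so none was near that floor. The 2 libraries of G10 spread by 13.35 times the variance of counting, against 2.3 to 4.04 times in the other groups. INPPL1 itself fell in every clone, to 88.4 CPM in D4, 64.9 in G4, 9.49 in G10 and 86.7 in H3 from 145 in the control (group means, n = 2). Mitochondrial transcripts took 2.38% and 2.55% of the control libraries, 2.31% and 2.49% in G10, and 2.95% to 3.30% in the other clones. All 10 squamous markers were detected, as the label of the line asks, and their sum was 2374 to 2379 CPM in the control, 1185 to 1233 in D4, 1526 to 1538 in G4, 619 to 633 in G10 and 772 to 786 in H3. The 5 simple epithelial markers summed to 2733 to 3010 CPM in the control and to between 3336 (G4) and 5717 CPM (D4) in the clones. Of markers of cells that a pure line should lack, few reached 1 CPM in 2 libraries. These were 2 of 6 for fibroblasts (COL1A1 and LUM), 1 of 6 for leukocytes (CD68) and 1 of 4 for endothelium (VWF). Over all 6 fibroblast markers, sums ran from 15.8 to 20.04 CPM in the control and from 11.95 (G4) to 136 CPM (H3) in the clones. For the 6 leukocyte markers they ran from 37.7 to 39.0 and from 6.15 (G10) to 38.8 (G4). For the 4 of endothelium they ran from 0.85 to 0.90 and up to 3.15 (H3). The part of these differences in the mitotic values was not tested.

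The promoters of these genes share short sequences that the choice of genes did not use. RefSeq promoter windows (GRCh38.p14, 250 bases before to 50 after the annotated start) were at hand for 39 of the 44 genes, with 44 windows, and not for BUB3, UBE2C, FOXM1, BIRC5 and TTK. The letters of the CHR (cell cycle genes homology region, TTTGAA or TTCGAA on either strand), the element read by MuvB complexes, occurred in 32 of the 39 genes (82.1%), against 19.5% of the 27305 genes in the table and 15.7% of those that were also tested. CCAAT, the box bound by NF-Y, occurred in 30 of 39 (76.9%) on either strand, against 39.7% of all genes and 43.2% of those tested. The tandem CDE-CHR, written GCGG, any 4 bases, then TTTGAA, was found in 5 of 39 (12.8%), namely CDK1, CDCA3, CENPF, NUF2 and DLGAP5, against 0.125% of all genes and 0.223% of those tested. E2F letters (TTTCCCGC or TTTGGCGC, either strand) were found in 2 of 39 (5.13%), CENPA and NUSAP1, against 2.75% of all genes and 4.37% of those tested. Position was shared too. CHR letters lay from -25 to the start in 27.3% of the 44 windows and in 1.26% of all 35116 windows, and CCAAT lay from -75 to -50 in 45.5% and 7.62%. A match is a description of letters and not of a bound site.

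**Figure D3:**
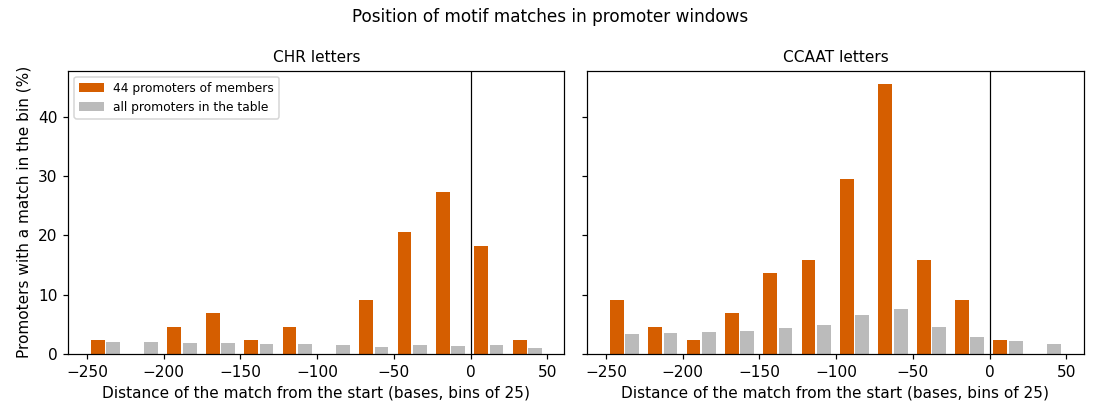
Share of promoter windows (vertical axis, %) with a CHR match (left) or a CCAAT match (right) in bins of 25 bases from the annotated start (horizontal axis, start at 0), for the 44 windows of the mitotic genes (orange) and all 35116 windows in the table (grey). CHR matches of the mitotic genes peak at 27.3% in the last bin before the start and CCAAT matches at 45.5% in the bin from -75 to -50.

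Upstream sequence is shown for the 6 genes with a CHR match before the start and the largest log2 differences for the mean of the clones, since it lets the spacing of the elements be read directly. Each is written 5′ to 3′ on the strand of the gene and ends at the base before the annotated start, and capitals mark CHR and CCAAT letters on either strand (CHR as TTTGAA, or TTCAAA in reverse, and CCAAT, or ATTGG in reverse). The regions are chr2:168890431-168890680 (−) for SPC25, chr12:53268179-53268298 (+) for ESPL1, chr14:54396757-54397006 (+) for CDKN3, chr1:37692396-37692515 (+) for CDCA8, chr15:40160949-40161068 (+) for BUB1B and chr15:90994536-90994655 (−) for PRC1, where the sign is the strand.
SPC25: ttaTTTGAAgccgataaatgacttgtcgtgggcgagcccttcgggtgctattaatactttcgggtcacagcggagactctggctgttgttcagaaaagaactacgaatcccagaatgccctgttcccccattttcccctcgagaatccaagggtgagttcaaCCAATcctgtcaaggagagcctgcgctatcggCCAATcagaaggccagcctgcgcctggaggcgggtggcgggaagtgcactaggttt
ESPL1: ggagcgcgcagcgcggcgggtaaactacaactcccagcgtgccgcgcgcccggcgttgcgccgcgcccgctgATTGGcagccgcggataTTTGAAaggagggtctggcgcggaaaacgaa
CDKN3: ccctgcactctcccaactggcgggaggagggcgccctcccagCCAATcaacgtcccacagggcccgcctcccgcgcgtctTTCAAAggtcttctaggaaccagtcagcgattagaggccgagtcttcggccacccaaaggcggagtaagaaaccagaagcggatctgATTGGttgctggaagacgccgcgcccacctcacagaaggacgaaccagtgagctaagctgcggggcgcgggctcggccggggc
CDCA8: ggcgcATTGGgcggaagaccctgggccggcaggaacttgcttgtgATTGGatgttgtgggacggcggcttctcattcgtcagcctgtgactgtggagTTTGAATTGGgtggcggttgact
BUB1B: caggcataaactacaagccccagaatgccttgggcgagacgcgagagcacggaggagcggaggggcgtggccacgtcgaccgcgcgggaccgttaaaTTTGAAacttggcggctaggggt
PRC1: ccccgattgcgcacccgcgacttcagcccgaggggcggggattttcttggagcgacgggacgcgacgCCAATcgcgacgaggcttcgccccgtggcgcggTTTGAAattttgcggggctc
In ESPL1, CDCA8, BUB1B and PRC1 the CHR begins at -31, -23, -23 and -20 counted from the start, and in CDKN3 it lies farther out, at -170. SPC25 has 2 CHR matches, the one in capitals at -247 and another from -3 to 3 across the start, of which the last 3 letters shown are the beginning. In CDCA8 the CHR shares its last letter with a reversed CCAAT in 1 run of capitals. BUB1B has no CCAAT in the stretch shown. Among the 39 genes, the median log2 difference for the mean of the clones was 0.34 in the 32 with CHR letters and 0.22 in the 7 without. It was 0.36 in the 30 with CCAAT and 0.21 in the 9 without, 0.30 in the 5 with CDE-CHR and 0.34 in the 34 without, and 0.42 in the 2 with E2F letters and 0.33 in the 37 without. None of these differences was tested. Of 1662 other tested genes with CHR letters, 374 rose (22.5%) and their median was -0.01. Among other tested genes 20.8% rose of those with CCAAT, 22.9% of those with E2F letters, and 8 of 19 with CDE-CHR. Of all genes tested 18.2% rose, but that share includes genes without a promoter window, so the sets are unlike.

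Among the mitotic cyclins, CDK1 and their regulators, 6 of 7 genes rose for the mean of the clones, against 18.2% of all genes tested. The median log2 difference of the 7 was 0.30. CDCA3, which recruits a ubiquitin ligase that removes the mitosis-blocking kinase WEE1, measured 58.2 and 61.1 CPM in the control libraries, 84.3 and 86.2 for D4, 73.5 and 82.1 for G4, 113 and 108 for G10, and 97.3 and 94.0 for H3. All 8 clone libraries lay above both control libraries, with G10 highest and G4 lowest among the clones, and CDCA3 stood 1.52-fold higher than the control (log2 difference 0.61, SE 0.06, adjusted p = 9.34e-07) in the mean of the clones. CCNB2, a B-type cyclin that activates CDK1, measured 83.0 and 85.2 CPM in the control libraries, 101 and 96.7 for D4, 109 and 102 for G4, 117 and 112 for G10, and 129 and 133 for H3. No clone library reached down to the control, and CCNB2 stood 1.33-fold higher than the control (log2 difference 0.41, SE 0.05, adjusted p = 2.42e-05). CDKN3, a phosphatase that acts on CDKs, measured 15.2 and 16.1 CPM in the control libraries, 22.9 and 20.6 for D4, 10.8 and 13.3 for G4, 29.6 and 31.1 for G10, and 28.9 and 32.1 for H3. Here the clones went apart. CDKN3 rose in D4 (log2 difference 0.45, SE 0.11, adjusted p = 0.00501), in G10 (log2 difference 0.91, SE 0.11, adjusted p = 1.55e-05) and in H3 (log2 difference 0.92, SE 0.11, adjusted p = 8.44e-06), and fell in G4 (log2 difference -0.36, SE 0.11, adjusted p = 0.0291), with both G4 libraries below both control libraries. The fall in G4 lost its call without control replicate 1 (-0.40, adjusted p = 0.0698), control replicate 2 (-0.32, 0.144) or G4 replicate 1 (-0.22, 0.278), and the rise in D4 without D4 replicate 1 (0.38, 0.0531).

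CDK1, the kinase that drives mitosis, averaged 83.9 CPM in the control and rose in D4 (log2 difference 0.56), G4 (0.28) and H3 (0.46), while in G10 the difference was -0.09 with an adjusted p of 0.419. FOXM1, the transcription factor of many G2 and mitotic genes, averaged 335 CPM in the control and was 0.19 higher for the mean of the clones. It lost that call without control replicate 2 (0.17, adjusted p = 0.0886), as did CCNA2, the A-type cyclin of S and G2 phase, at 0.21 (0.17, 0.124). CKS2, a small CDK-binding subunit, differed by 0.15 with an adjusted p of 0.0962. The rise of CDK1 in G4 lost its call without any one of the 4 control and G4 libraries (0.27 to 0.29, adjusted p 0.0611 to 0.0867), that of CCNB2 in D4 without control replicate 1 (0.21, 0.0816) or D4 replicate 1 (0.20, 0.0912).

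Of the spindle checkpoint and anaphase genes, 9 of 9 rose for the mean of the clones, against 18.2% of all genes tested. Their median log2 difference was 0.41. BUB1, a checkpoint kinase that marks centromeric chromatin, measured 66.9 and 62.2 CPM in the control libraries, 86.2 and 84.0 for D4, 99.0 and 99.3 for G4, 97.5 and 85.3 for G10, and 162 and 158 for H3. Every clone library exceeded both control libraries, and both H3 libraries stood far above the other 6. BUB1 was 1.63-fold higher than the control (log2 difference 0.70, SE 0.06, adjusted p = 2.47e-07) in the mean of the clones and 2.46-fold in H3. BUB1B, which encodes the checkpoint protein BUBR1, measured 93.0 and 92.2 CPM in the control libraries, 112 and 101 for D4, 121 and 115 for G4, 137 and 131 for G10, and 151 and 153 for H3. The groups did not overlap with the control, and BUB1B stood 1.36-fold higher than the control (log2 difference 0.44, SE 0.06, adjusted p = 1.27e-05). UBE2C, the ubiquitin-conjugating enzyme that serves the anaphase-promoting complex, measured 119 and 131 CPM in the control libraries, 183 and 191 for D4, 175 and 169 for G4, 196 and 227 for G10, and 204 and 207 for H3. The lowest clone library lay well above the higher control library, and UBE2C stood 1.54-fold higher than the control (log2 difference 0.63, SE 0.06, adjusted p = 6.52e-07). ESPL1, which encodes separase, the protease that cuts cohesin at anaphase, measured 62.5 and 71.2 CPM in the control libraries, 82.4 and 73.8 for D4, 80.6 and 86.9 for G4, 85.2 and 91.2 for G10, and 139 and 133 for H3. H3 stood apart from the other 3 clones, whose lowest library was close to the higher control library, and ESPL1 was 1.40-fold higher than the control (log2 difference 0.49, SE 0.07, adjusted p = 2.63e-05).

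CDC20, the activator of the anaphase-promoting complex that the checkpoint holds back, measured 237 and 242 CPM in the control libraries, 209 and 200.1 for D4, 261 and 253 for G4, 342 and 351 for G10, and 303 and 294 for H3. Both D4 libraries lay below the control and both G10 and H3 libraries above it. CDC20 fell in D4 (log2 difference -0.23, SE 0.06, adjusted p = 0.00427), rose in G10 (log2 difference 0.53, SE 0.06, adjusted p = 3.09e-06) and in H3 (log2 difference 0.32, SE 0.06, adjusted p = 0.000285), and differed in G4 by 0.10 with an adjusted p of 0.212. PTTG1, which encodes securin, the inhibitor of separase, was highest in G4, at 97.3 CPM against 56.4 in the control (log2 difference 0.78), and it rose in H3 (0.51) and G10 (0.21) while D4 differed by 0.15 with an adjusted p of 0.143. BUB3, a partner of both BUB kinases, rose in D4, G10 and H3 by 0.32 to 0.43. TTK, the kinase that starts checkpoint signalling, rose in G10 (0.42) and H3 (0.45), and MAD2L1, which encodes the checkpoint effector MAD2, rose in the same 2 clones by 0.46 and 0.28. Calls for the mean of the clones were lost for CDC20 without control replicate 1 (0.16, adjusted p = 0.0773), for TTK without control replicate 2 (0.18, 0.235), and for MAD2L1 without control replicate 1 (0.28, 0.0536) or 2 (0.25, 0.0818). The TTK call in G10 was lost without control replicate 2 (0.33, 0.0576), the MAD2L1 call in H3 without any one of the control and H3 libraries (0.26 to 0.29, 0.0598 to 0.0878), and the PTTG1 call in G10 without any library but G10 replicate 2 (0.12 to 0.25, 0.0534 to 0.299). The BUB1B call in D4 was lost without any library other than D4 replicate 2 and those of G10 (0.12 to 0.20, 0.0536 to 0.301). The ESPL1 call in D4 was lost without control replicate 1 (0.13, 0.346), D4 replicate 1 (0.14, 0.295) or any one library of G4 or H3 (0.22, 0.0557 to 0.0580), and in G4 without control replicate 1 (0.23, 0.126) or G4 replicate 2 (0.27, 0.0995).

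The chromosomal passenger complex, which corrects wrong attachments and then directs cytokinesis, gave values that varied by subunit. For the mean of the clones 2 of 4 genes rose, against 18.2% of all genes tested. The median log2 difference of the 4 was 0.16. CDCA8, which encodes borealin, measured 67.8 and 72.7 CPM in the control libraries, 92.2 and 95.6 for D4, 90.5 and 90.1 for G4, 101 and 95.03 for G10, and 102 and 107 for H3. All clone libraries lay above both control libraries, between 90.1 and 107 CPM, and CDCA8 stood 1.37-fold higher than the control (log2 difference 0.45, SE 0.06, adjusted p = 1.23e-05). AURKB, the kinase of the complex, was 0.19 higher for the mean and, of the single clones, passed in H3 (0.29). BIRC5, which encodes survivin, rose in G4 (0.31) and G10 (0.39), and differed by -0.02 in D4 and -0.14 in H3 (adjusted p = 0.885 and 0.110). INCENP, the scaffold, rose in G10 (0.51) and differed by -0.08 to 0.06 in the others. The AURKB call for the mean was lost without control replicate 1 (0.22, adjusted p = 0.0650) or 2 (0.16, 0.170) and its call in H3 without H3 replicate 1 (0.25, 0.0606). BIRC5 lost its call in G4 without control replicate 1 (0.23, 0.0749) or G4 replicate 2 (0.27, 0.0534).

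At the centromere and kinetochore, 5 of 6 genes rose for the mean of the clones, against 18.2% of all genes tested. The median log2 difference of the 6 was 0.26. SPC25, a subunit of the NDC80 complex that grips microtubules, measured 11.5 and 11.5 CPM in the control libraries, 17.1 and 16.8 for D4, 17.99 and 16.4 for G4, 16.3 and 14.8 for G10, and 18.1 and 21.8 for H3. No clone library overlapped with the control, and SPC25 stood 1.46-fold higher than the control (log2 difference 0.55, SE 0.09, adjusted p = 0.000204). Of its partners in the same complex, NDC80 rose in H3 (0.62) and differed by 0.04 to 0.20 in the other clones without passing. NUF2 passed in no clone and ran from -0.29 in D4 to 0.20 in H3. CENPF, a kinetochore protein made in G2 and mitosis, rose in H3 (0.86) and G10 (0.30), and differed by 0.14 and 0.18 in D4 and G4. CENPE, the kinesin that carries chromosomes to the spindle equator, rose by 0.42 in both G10 and H3, and CENPA, the histone H3 variant of centromeres, by 0.50 in G4, 0.31 in G10 and 0.41 in H3. For the mean of the clones, calls were lost for NDC80 without control replicate 1 (0.24, adjusted p = 0.0690) or 2 (0.23, 0.0756), for CENPE without control replicate 2 (0.14, 0.325) or G4 replicate 1 (0.21, 0.0541), and for CENPA without control replicate 1 (0.20, 0.217). In G10, SPC25 lost its call without control replicate 1 (0.41, 0.0554), control replicate 2 (0.40, 0.0572) or G10 replicate 1 (0.34, 0.0737), CENPF without control replicate 2 (0.24, 0.0621), and CENPA without control replicate 1 (0.22, 0.241) or either G10 library (0.27 and 0.35, 0.118 and 0.0527). In H3, CENPA lost it without control replicate 1 (0.32, 0.0658) or H3 replicate 1 (0.36, 0.0510), and CENPE without H3 replicate 2 (0.28, 0.0501).

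Of the 12 spindle motors, spindle proteins and cytokinesis genes 11 rose for the mean of the clones, against 18.2% of all genes tested. The median log2 difference of the 12 was 0.34, and 12 of 12 rose in H3, against 23.9% of all genes tested. NUSAP1, which bundles spindle microtubules near chromatin, measured 89.4 and 83.8 CPM in the control libraries, 131 and 123 for D4, 111 and 101 for G4, 128 and 111 for G10, and 157 and 167 for H3. The clone libraries all exceeded the control libraries, G4 least and H3 most, and NUSAP1 stood 1.46-fold higher than the control (log2 difference 0.55, SE 0.06, adjusted p = 6.08e-06). KIF20A, a kinesin needed for cytokinesis, measured 111 and 107 CPM in the control libraries, 147 and 137 for D4, 148 and 151 for G4, 157 and 140.2 for G10, and 192 and 179 for H3. Every clone library was above both control libraries, with H3 above the rest, and KIF20A stood 1.42-fold higher than the control (log2 difference 0.51, SE 0.06, adjusted p = 3.58e-06). PRC1, which crosslinks the microtubules of the central spindle, measured 130.0 and 127 CPM in the control libraries, 173 and 163 for D4, 186 and 184 for G4, 174 and 156 for G10, and 179 and 186 for H3. All clone libraries lay above both control libraries, between 156 and 186 CPM, and PRC1 stood 1.36-fold higher than the control (log2 difference 0.44, SE 0.05, adjusted p = 1.04e-05). KIFC1, a minus-end kinesin that focuses spindle poles, measured 65.8 and 70.1 CPM in the control libraries, 76.0 and 88.6 for D4, 109.9 and 122 for G4, 76.3 and 79.0 for G10, and 90.6 and 96.4 for H3. Its G4 libraries stood above all others, and KIFC1 was 1.34-fold higher than the control (log2 difference 0.42, SE 0.07, adjusted p = 0.000136), passing in D4, G4 and H3 and not in G10 (0.19, adjusted p = 0.0899). The D4 call was lost without control replicate 1 (0.22, 0.125) or D4 replicate 2 (0.16, 0.218), and that of NUSAP1 in G4 without control replicate 2 (0.24, 0.109) or G4 replicate 1 (0.22, 0.153).

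Among the remaining genes of this role, KIF23, the motor of the central spindle complex, rose most in D4 (0.50), and by 0.35 in G10 and 0.30 in H3. ASPM, a spindle pole protein, rose in D4 (0.27), G10 (0.54) and H3 (0.82) and differed by 0.01 in G4. DLGAP5, which steadies kinetochore fibres, rose in G10 (0.53) and H3 (0.63), as did HMMR, a spindle assembly factor and hyaluronan receptor, by 0.63 and 0.44. KIF4A, a chromokinesin, rose in G4, G10 and H3 by 0.29, 0.36 and 0.57, and KIF11, the motor that separates spindle poles, in D4, G10 and H3 by 0.27, 0.40 and 0.31. ANLN, a scaffold of the cleavage furrow, rose in D4, G4 and H3 by 0.27 to 0.30 and differed by -0.02 in G10. KIF2C, a kinesin that takes microtubules apart, passed in H3 (0.28), with -0.04 to 0.08 in the others. Without control replicate 2, calls for the mean of the clones were lost for KIF11 (0.23, adjusted p = 0.0696), ANLN (0.17, 0.140) and HMMR (0.26, 0.194). KIF11 lost its call in D4 without control replicate 2 or D4 replicate 1 (0.23 and 0.18, adjusted p = 0.0998 and 0.160) and in H3 without control replicate 2 or H3 replicate 2 (0.27 and 0.25, 0.0505 and 0.0706). ASPM lost its call in D4 without control replicate 2 or either D4 library (0.20 to 0.32, 0.0590 to 0.202), and KIF4A in G4 without control replicate 1 or G4 replicate 2 (0.28 in both, 0.0503 and 0.0546). ANLN lost its calls in D4 without D4 replicate 1, in G4 without control replicate 2 or either G4 library, and in H3 without control replicate 2 or H3 replicate 2 (0.23 to 0.29, 0.0510 to 0.101). HMMR lost its call in H3 without control replicate 2 or H3 replicate 2 (0.36 and 0.31, 0.0945 and 0.103).

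**Figure D4:**
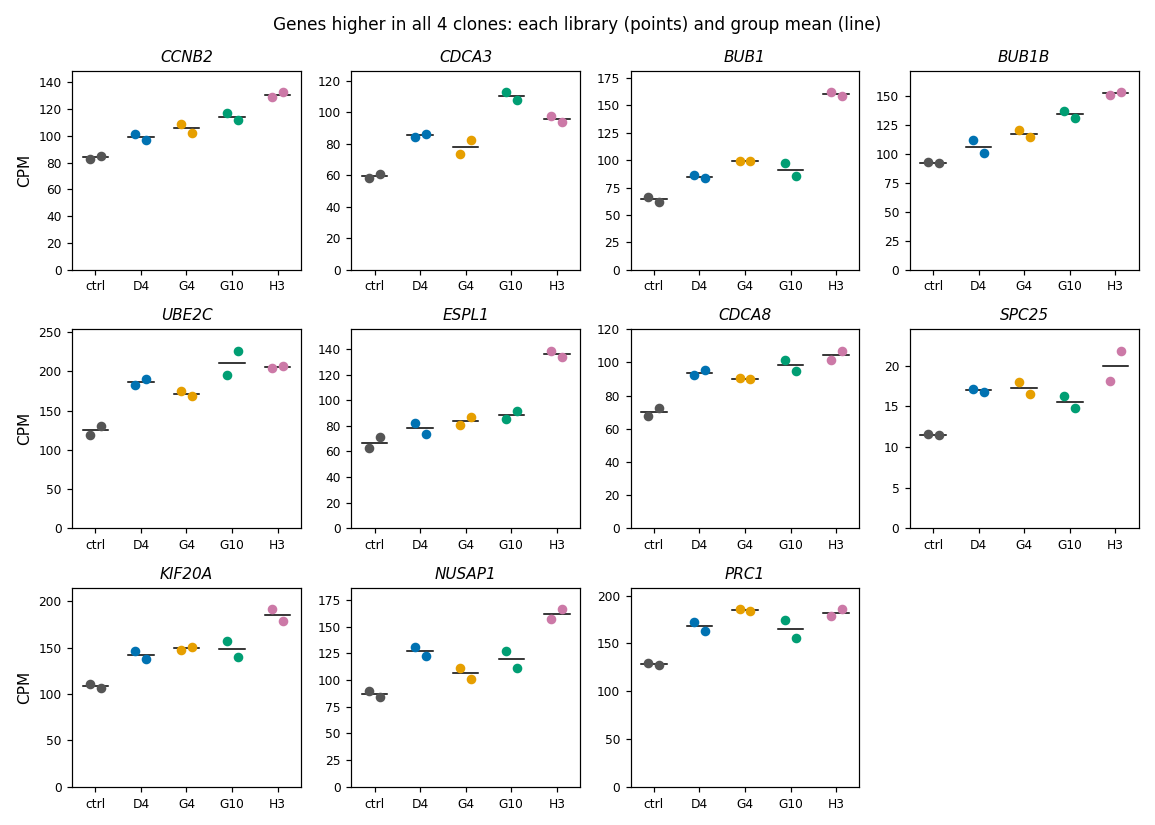
Expression in CPM (vertical axes from 0) of the 11 genes that rose in each of the 4 clones, with 1 point per library and a line at each group mean (n = 2). Every clone library lies above both control libraries in each panel, and H3 is highest in BUB1 at 158 and 162 CPM against 62.2 and 66.9 in the control.

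The condensins and chromosome structure genes had 4 of 6 higher and 1 lower for the mean of the clones, against 18.2% and 22.0% of all genes tested. The median log2 difference of the 6 was 0.28. SMC4, a core ATPase of condensin, measured 486 and 458 CPM in the control libraries, 393 and 370.0 for D4, 499.5 and 458 for G4, 453 and 423 for G10, and 382 and 434 for H3. SMC4 fell in D4 (log2 difference -0.31, SE 0.07, adjusted p = 0.00231) and in H3 (log2 difference -0.21, SE 0.07, adjusted p = 0.0212), the G4 libraries overlapped with the control, and its difference for the mean was -0.15 (SE 0.06, adjusted p = 0.0392). That call was lost without control replicate 1 (-0.11, 0.326), control replicate 2 (-0.19, 0.0726), D4 replicate 2 (-0.14, 0.0666), G4 replicate 2 (-0.14, 0.0817) or H3 replicate 1 (-0.13, 0.0730), and the fall in H3 without control replicate 1 (-0.17, 0.148) or H3 replicate 1 (-0.12, 0.280). SMC2, which pairs with SMC4 in condensin, went the other way, with rises of 0.28 in D4, 0.31 in G10 and 0.30 in H3 and -0.07 in G4. The condensin I subunits NCAPG and NCAPH rose by 0.38 and 0.36 for the mean, NCAPG most in G10 (0.78) and NCAPH most in H3 (0.59). TOP2A, the topoisomerase that untangles sister chromatids, averaged 348 CPM in the control and rose in D4 (0.37), G10 (0.47) and H3 (0.67), with 0.06 in G4. MKI67, which encodes a protein that coats mitotic chromosomes and serves as a proliferation marker, passed in no clone, with differences from -0.09 to 0.07 around a control mean of 412 CPM. SMC2 lost its call for the mean without control replicate 2 (0.16, 0.191), and in D4, G10 and H3 without that library as well, in D4 also without D4 replicate 1 and in H3 without H3 replicate 2 (0.17 to 0.27, 0.0580 to 0.148). NCAPG lost its call in H3 without H3 replicate 2 (0.25, 0.0733).

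In all, 11 of the 44 genes rose in each of the 4 clones, against 2.81% of the genes tested, and 0 fell in each, against 3.90%. They were CCNB2, CDCA3, BUB1, BUB1B, UBE2C, ESPL1, CDCA8, SPC25, KIF20A, NUSAP1 and PRC1, and they come from 5 of the 6 roles. The 6 genes CDCA3, BUB1, UBE2C, CDCA8, KIF20A and PRC1 kept all 4 calls with any 1 library left out. A further 16 genes rose in 3 clones, 9 in 2, 4 in 1 and 4 in none. Without control replicate 1 the count was 7. With 1 clone left out, the count of genes higher in each of the other 3, which asks for fewer calls, was 14 without D4, 18 without G4, 15 without G10 and 9 without H3. Shares of all genes tested were not counted for genes that rose in fewer than 4 clones, nor with a library or clone left out. On the scale of expression per kilobase of exon, the 44 genes ran in the control from 5.74 CPM per kb for TTK to 118 CPM per kb for CDC20.

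The 4 clones also differed from one another. An F test among them passed for 37 of the 44 genes, against 67.3% of all genes tested. Against the mean of the other 3 clones, H3 had 21 genes higher and 1 lower, where 26.1% and 17.5% of all genes tested were called, and G10 had 12 higher and 6 lower, where 17.7% and 15.4% were. G4 had 5 higher and 21 lower, against 19.1% and 23.7%, and D4 had 2 higher and 19 lower, against 14.3% and 19.1%. H3 had the highest clone mean in 22 genes, G10 in 14, G4 in 5 and D4 in 3. The lowest clone mean was that of G4 in 19 genes, D4 in 18, G10 in 6 and H3 in 1. These rankings were not counted over all genes tested, so they may not be particular to the 44 genes. The differences between the highest and lowest clone were widest for CDKN3 (1.28 on the log2 scale, G4 lowest), BUB1 (0.91, H3 highest), ASPM (0.81, H3 highest), ESPL1 (0.80, H3 highest) and CDC20 (0.76, D4 lowest). The 5 genes higher in G4 than in the other clones were PTTG1, KIFC1, CENPA, BIRC5 and SMC4, and the 2 higher in D4 were CDK1 and KIF23. The 6 lower in G10 were CDK1, BUB1, PTTG1, NDC80, KIFC1 and ANLN, and the 1 lower in H3 was BIRC5. These names were chosen after the values were seen.

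Several of these differences lie in stretches of chromosome whose other genes moved alike. For each gene, the median log2 difference of 50 neighbouring tested genes on the same chromosome, each with a mean of at least 5 CPM, was set beside its own. Where these medians were subtracted from the clone libraries they counted as fixed values, so the adjusted p-values leave out their error. SMC4 lies on chromosome 3 in a window (152243828 to 171460408, GENCODE 29 on hg38) whose median was -0.38 in D4, -0.16 in G4, -0.40 in G10 and -0.58 in H3. With these medians subtracted, SMC4 stood 0.23 above the control for the mean of the clones (adjusted p = 0.00443), the opposite direction. CDKN3 and DLGAP5 are near each other on chromosome 14, where the neighbours of CDKN3 stood at -0.52 in G4 and those of DLGAP5 at -0.44, and at -0.14 to 0.01 in the other clones. With neighbours subtracted, CDKN3 in G4 was 0.16 (adjusted p = 0.343) and DLGAP5 in G4 was 0.35 (0.00647). The neighbours of CDK1 in G10 stood at -0.40 and those of NDC80 at -0.34, and after subtraction CDK1 was 0.31 higher in G10 (0.00701) and NDC80 0.38 higher (0.00209). ANLN in G10 had neighbours at -0.30 and became 0.27 higher (0.00994). CDC20 in D4, with neighbours at -0.18, became -0.05 (0.557). In the other direction, the neighbours of ESPL1 on chromosome 12 stood at 0.25 to 0.46 in the 4 clones. Its mean difference became 0.17 (adjusted p = 0.0619), with H3 keeping 0.56 (8.47e-05). ESPL1 became -0.04 in D4 (0.758), 0.08 in G4 (0.584) and 0.10 in G10 (0.421). CCNB2 in D4 (0.14, 0.139) and SPC25 in G4 (0.29, 0.0981), which like ESPL1 had risen in each clone, no longer passed. Calls were also lost for CENPA in H3 (0.13, 0.364), NCAPH in G4 (0.13, 0.261) and KIF4A in G4 (0.15, 0.174) and G10 (0.17, 0.102), among others. PTTG1 and KIFC1 in G4, with neighbours at 0.26 and 0.27, kept 0.52 (0.000324) and 0.49 (0.000999). NCAPG and INCENP in G10, with neighbours at 0.28 and 0.24, kept 0.49 (0.000286) and 0.26 (0.0427). BUB1 kept 1.17 in H3 (9.99e-09). With neighbours subtracted, 38 of the 44 genes were higher for the mean of the clones, and 0 were lower. In that fit 12 genes were higher in each of the 4 clones. The share of all genes tested that it called was not counted, so these counts have no background beside them.

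**Figure D5:**
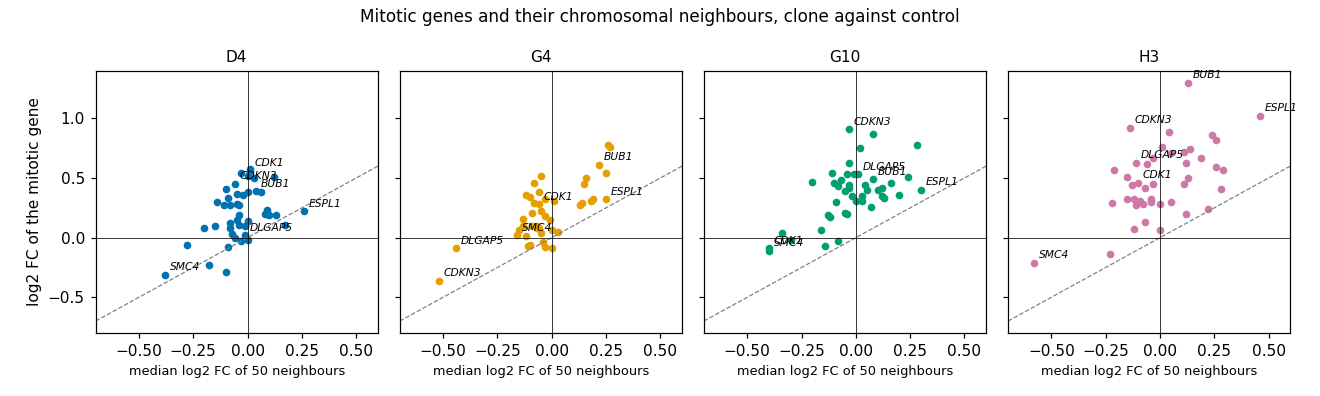
Log2 difference of each of the 44 mitotic genes from the control (vertical axis, log2(CPM + 1) scale) against the median of its 50 chromosomal neighbours (horizontal axis), in 1 panel per clone, with a dashed line where both are equal. Most points lie above the line, and SMC4 in D4, G10 and H3 and CDKN3 in G4 sit at the left, with neighbours between -0.38 and -0.58.

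Mitotic genes outside the 44 were taken from 7 lists drawn up by function, with earlier results of these data known. Of their 133 genes, all tested, 46 rose and 18 fell for the mean of the clones, with a median log2 difference of 0.07, where 18.2% of all genes tested rose and 22.0% fell. With clones as the replicates, limma called 0 of them, as it did 0 of all genes tested (693 genes at an unadjusted p under 0.05 from clone means and 1152 from a random effect of clone). In the lists of the anaphase-promoting complex and cohesin the share that rose was near or below that of all genes. Other spindle and kinesin genes had 15 higher and 3 lower of 28 (median 0.20), led by KIF18A, a kinesin that shortens kinetochore fibres, at 0.93. KIF18A rose in D4 (1.07), G10 (1.33) and H3 (1.07), where its neighbours stood at 0.49, 0.59 and 0.35, and differed by 0.23 in G4 (adjusted p = 0.106), where they stood at -0.16. Other cytokinesis genes had 7 higher and 4 lower of 13 (median 0.27), and RACGAP1, the partner of KIF23 in the central spindle complex, stood at 0.52, DEPDC1 at 0.55 and CHMP4B, an ESCRT subunit of abscission, at 0.50. Other kinetochore and centromere genes had 11 higher and 2 lower of 34 (median 0.08). HJURP, the chaperone that loads CENPA, measured 16.7 and 16.2 CPM in the control libraries, 36.4 and 35.9 for D4, 43.0 and 38.3 for G4, 52.1 and 49.1 for G10, and 42.4 and 45.2 for H3. Every clone library lay far above both control libraries, and HJURP rose by 1.09 (D4) to 1.56 (G10) on the log2 scale in the single clones (adjusted p at most 1.4e-07), where its neighbours on chromosome 2 stood at 0.34 to 0.72. TRIP13, the ATPase that takes apart the checkpoint complex of MAD2, was 0.78 higher, and CENPW, an inner kinetochore protein, 0.60 higher. Other subunits and regulators of the anaphase-promoting complex had 3 higher and 1 lower of 17 (median 0.06), with the inhibitor FBXO5 at 0.68, ANAPC1 at 0.57 and ANAPC13 at -0.45. Cohesin and its regulators had 2 higher and 2 lower of 15 (median -0.06), with ESCO1 at -0.56, SGO2 at 0.49 and STAG1 at -0.32. Of the 4 other condensin subunits, NCAPD2 rose (0.47). The DREAM, MuvB and E2F regulators had 7 higher and 6 lower of 22 (median -0.09), with the MuvB subunits LIN52 and LIN37 at -0.47 and -0.40 and the NF-Y subunit NFYB at 0.38. The other named spindle genes were KIF20B at 0.56 and CKAP2L at 0.49. Leaving out control replicate 1 ended the calls of ANAPC13 (-0.35, adjusted p = 0.0745), STAG1 (-0.26, 0.0506) and LIN37 (-0.25, 0.243), and leaving out control replicate 2 that of SGO2 (0.37, 0.0832). With neighbours subtracted, ANAPC13 (-0.18, 0.205), SGO2 (0.25, 0.108), STAG1 (-0.04, 0.671), LIN52 (-0.17, 0.147) and LIN37 (-0.10, 0.504) no longer passed, and NFYB became -0.06 (0.632).

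The mitotic kinases and cyclin that work beside the 44 genes gave mixed values. AURKA, the spindle pole kinase, rose in each clone by 0.32 to 0.60 and by 0.47 for the mean (SE 0.05, adjusted p = 5.64e-06). CCNB1, the main mitotic cyclin, fell in D4 (-0.28) and rose in G4 (0.36), G10 (0.39) and H3 (0.50). PLK1, a kinase of mitotic entry, fell in D4 (-0.32), rose in G4 (0.48), and differed by 0.16 in G10 and -0.14 in H3 without passing. The neighbours of PLK1 stood at -0.41 in D4, -0.04 in G4, -0.39 in G10 and -0.62 in H3.

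Overlapping genes limit some values, since no strand setting is given in the sources used here. Of the 44 genes, 16 overlap another annotated gene with a mean of at least 1 CPM, 2 of them on the same strand. BUB1B overlaps the readthrough gene BUB1B-PAK6 (52.9 CPM), and CENPA overlaps SLC35F6 (48.1 CPM). On the opposite strand, FOXM1 overlaps ITFG2 (130 CPM) and RHNO1 (45.8 CPM), and KIF2C overlaps AL592166.1 (57.9 CPM). Also on that strand, KIF20A overlaps BRD8 (94.6 CPM) and CDC23 (72.8 CPM), PRC1 overlaps PRC1-AS1 (40.6 CPM), and SMC4 overlaps TRIM59 (114 CPM) and IFT80 (46.9 CPM). Processed copies of the 44 genes that were looked up, such as CDC20P1 and KIF4B, were at 0.335 CPM or less.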

How the data were processed

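RNA sequencing libraries of total RNA (Ovation Solo kit, per the labels) from 5 groups of 2 were used. The deposited values were CPM, which the authors computed per library. STAR 2.5.3a, HTSeq and the hg38 genome are named in the submitters' processing notes, and the strand setting, annotation release and filters are not given in the sources used here. Positions and gene types came from GENCODE 29, which matched 58039 of 58302 genes by Ensembl identifier.

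The 44 genes, their roles, the other lists and the tests were chosen with earlier results of these data known. limma 3.58.1 (R 4.3.3) with trend and robust moderation was fitted to log2(CPM + 1) of 17664 genes, those that reached 1 CPM in 2 or more libraries, with 1 coefficient per group and 5 residual degrees of freedom. P-values were adjusted over all genes tested (Benjamini-Hochberg, 0.05). Contrasts were the mean of the 4 clones and each clone against the control, each clone against the other 3, and an F test among clones. Read numbers were inferred by inverting the step size of each deposited column (99.79% to 99.91% of values above 0, rounded to within 0.5 of a scaled unit, gave whole reads), giving 9653835 to 14253437 per library. The fit was also run on simulated data with a shared spread between libraries and no differences among clones. That run could not check how far clones vary, and its outcome is not given here. Values in every library are given for genes higher in all 4 clones, lower in any clone, or among the 12 largest differences for the mean. Up to 3 genes that passed are named in each other list. Alternatives changed scaling, filter, pseudocount, test, replicate block, libraries, clones, unit of replication and neighbouring genes. Some of these, for the other lists, INPPL1 and the contrasts between clones, were chosen after seeing the data. Promoter windows are from RefSeq. Python 3.11.15, numpy 2.4.6, pandas 2.3.3 and matplotlib 3.10.9 were used. Some marker values are not reported here.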

Additional observations from a re-analysis of the deposited data

Results flagged for a closer look

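The difference between clones was itself tested, by an F test among the 4 clones in the limma fit, and 37 of the 44 genes passed at an adjusted p under 0.05, where 67.3% of all genes tested did. The values that follow are the log2 distance between the highest and the lowest clone, each taken against the same control. Among the mitotic cyclins, CDK1 and their regulators the distance was 1.28 for CDKN3, 0.65 for CDK1, 0.50 for CDCA3, 0.40 for CCNB2 and 0.25 for CCNA2. In the spindle checkpoint and anaphase genes it was 0.91 for BUB1, 0.80 for ESPL1, 0.76 for CDC20, 0.63 for PTTG1, 0.52 for BUB1B, 0.38 for MAD2L1, 0.35 for TTK, 0.29 for UBE2C and 0.28 for BUB3. For the passenger complex it was 0.59 for INCENP and 0.53 for BIRC5. At the centromere and kinetochore it was 0.72 for CENPF, 0.58 for NDC80, 0.57 for CENPA, 0.49 for NUF2 and 0.43 for CENPE. Spindle and cytokinesis genes had 0.81 for ASPM, 0.72 for DLGAP5, 0.66 for HMMR, 0.60 for NUSAP1, 0.57 for KIFC1, 0.46 for KIF4A, 0.45 for KIF23, 0.38 for KIF20A, 0.33 for ANLN, 0.31 for KIF2C and 0.30 for KIF11. Chromosome structure genes had 0.69 for NCAPG, 0.60 for TOP2A, 0.40 for NCAPH, 0.38 for SMC2 and 0.33 for SMC4.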

How the results depend on the processing

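Of the 44 genes, the call and direction for the mean of the 4 clones held in all 44 with no filter, a minimum mean of 5 CPM, a pseudocount of 0.1 or limma-voom on estimated reads, and in 41 with median-of-ratios size factors. With clone means, or with clone as a random block, 0 genes were called higher and 0 lower, 0 of the genes on the other lists passed (46 were higher in the fit as reported), and INPPL1 kept its difference of -1.60 without passing. Of all genes tested, 0 were called in either of these settings. The count of genes lower for the mean was also 0 with size factors, without clone D4, without clone H3 and with neighbours subtracted. With neighbours subtracted, 0 genes were lower in D4, 0 in G4 and 0 in H3, and limma-voom also gave 0 lower in G4. Without clone G4, 18 genes were higher in each of the 3 clones left, which is an easier condition. Leaving out 1 library, the counts ran from 27 to 37 higher and 0 to 1 lower for the mean, 14 to 25 and 2 to 3 in D4, 15 to 20 and 0 to 1 in G4, 29 to 33 and 0 in G10, and 31 to 38 and 0 to 1 in H3. They ran from 7 to 12 in all 4 clones, 34 to 38 by the F test, 70 to 91 calls of a clone against the other 3 (87 as reported), 32 to 49 on the other lists, and -1.64 to -1.55 for INPPL1. Directions turned for SMC4 (0.23), MKI67 (0.04) and NFYB (-0.06) with neighbours subtracted, NUF2 without clone D4 (0.02), MKI67 without H3 replicate 1 (0.01, against -0.07 without H3 replicate 2), and PLK1 without control replicate 1 (-0.04) or clone G4 (-0.10). FOXM1 (0.11, adjusted p = 0.102) and KIF4A (0.13, 0.0961) no longer passed with neighbours subtracted, while CKS2 (0.22, 0.0230), BIRC5 (0.20, 0.0109) and KIF2C (0.21, 0.00687) did. The cause of these changes was not tested. Apart from the settings with clones as the replicates, the share of all genes tested that each alternative called was not counted.

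Libraries of different groups share replicate numbers, but no label ties a number to a batch, and the deviations of same-numbered libraries correlated at 0.213 to 0.414 among control, D4, G4 and G10 and at -0.237 to -0.083 between H3 and these. Since not every pair correlated above 0.1, the numbers were not treated as pairs, although 4 of the 5 groups deviated together. A fit with the replicate number as a block gave 38 genes higher and 1 lower in the 4 clones on average, 25 and 3 in D4, 21 and 1 in G4, 35 and 0 in G10, 38 and 1 in H3, and 13 in all 4 clones, with BIRC5 gained for the mean (0.13, 0.0433). The share of all genes tested that the block fit called was not counted, so its counts have no background beside them. The planned test on counts was not run, because the deposited unit is CPM and reads could be inferred but not taken as given, so limma-voom on the inferred reads stood in for it. A planned search of protein sequences was not run. One control colony limits every comparison, and the replicate error comes from 5 pairs of libraries.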
